A study of Mus musculus with 47 samples.

Results

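Tubulin isotype genes were examined in hypothalamus from Lep ob/ob mice that received 1 injection of fibroblast growth factor 1 (FGF1) into a cerebral ventricle (icv). The 10 genes were taken by symbol from a table of 14221 genes: the β-tubulin genes Tubb6, Tubb2a, Tubb2b, Tubb3, Tubb4a, Tubb4b and Tubb5, and the α-tubulin genes Tuba1a, Tuba1b and Tuba1c. Tubb6 was chosen by its measured log2 fold change on Day 1, where its count was higher after FGF1, and the others as the isotypes to set beside it. Its own Day 1 difference is therefore given as a description, without a p-value, as are the Day 1 differences of the other members, which come from the same contrast.

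Microtubules are hollow polymers of α- and β-tubulin dimers that carry transport along axons, form the core of cilia and build the mitotic spindle. Mammals encode each partner in several genes whose products, the isotypes, differ mainly in their C-terminal tails. In the brain Tubb3 is the neuron-specific β isotype, Tubb2a, Tubb2b and Tubb4a are abundant in neural tissue, Tubb5 and Tubb4b are made in most cells, and Tubb6 is a minor isotype made mainly outside neurons. Tuba1a is the main α isotype of neurons, whereas Tuba1b and Tuba1c are broadly made.

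All mice were males of the leptin-deficient ob/ob strain, labelled as 11 weeks old, and 1 RNA-seq library was made from the hypothalamus of each of 47 mice. FGF1 was given at 3 µg, and vehicle-treated mice were fed the amount eaten by FGF1-treated mice. On Day 1 there were 10 FGF1-treated mice and 4 vehicle-treated mice labelled non-diabetic, and on Day 42 there were 5 and 5. On Day 5 there were 9 FGF1-treated mice and 2 vehicle groups, 7 mice labelled non-diabetic and 7 labelled diabetic. Because every mouse lacks leptin, no group gives the level in a lean animal.

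Total counts per library ran from 1243280 to 47082403. The lowest belonged to FGF1 replicate 17 of Day 1, and on Day 5 21 of 23 libraries lay between 7579695 and 12451642, with FGF1 replicates 8 and 9 at 30009258 and 27922117. All libraries of a day shared 1 preparation code, with 3 codes over the 3 days, so day and preparation cannot be told apart and levels are compared between treatments within a day. All 10 hypothalamic neuropeptide genes used to check the tissue were in the table, and their summed level was 474 normalized counts or more in every mouse. A normalized count is a CPM value computed with library sizes scaled by the trimmed mean of M values (TMM). In whole tissue, fewer cells of a type and less RNA per cell cannot be told apart.

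The isotypes resemble one another closely, which limits how well reads can be assigned. The start of the coding sequence is shown because the nascent N-terminus it encodes is the part of a new tubulin chain bound by Ttc5, the factor through which cells adjust tubulin mRNA to the supply of free tubulin. For 6 of the β genes, the first 60 coding bases are given 5′ to 3′ from GENCODE M21 transcripts of the mouse genome GRCm38. Capitals mark bases that differ from Tubb3.
Tubb3: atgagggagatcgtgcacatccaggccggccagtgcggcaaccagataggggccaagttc
Tubb2a: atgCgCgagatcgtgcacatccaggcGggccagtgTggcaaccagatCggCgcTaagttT
Tubb2b: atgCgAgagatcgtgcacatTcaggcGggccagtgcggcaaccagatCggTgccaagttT
Tubb4a: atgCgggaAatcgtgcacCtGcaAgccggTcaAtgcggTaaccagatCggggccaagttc
Tubb4b: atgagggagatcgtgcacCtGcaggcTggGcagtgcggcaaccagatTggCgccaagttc
Tubb5: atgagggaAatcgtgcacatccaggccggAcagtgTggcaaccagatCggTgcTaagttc
Against Tubb3, the other 5 sequences differed at 6 to 9 of these bases.

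These genes lie at chr8:123411424-123422015 (plus strand, Tubb3), chr13:34074274-34078007 (minus strand, Tubb2a), chr13:34126748-34130466 (minus strand, Tubb2b), chr17:57080066-57087782 (minus strand, Tubb4a), chr2:25222160-25224702 (minus strand, Tubb4b) and chr17:35833921-35838306 (minus strand, Tubb5). The α genes lie together at chr15:98949837-98953703 (minus strand, Tuba1a), chr15:98931425-98934565 (minus strand, Tuba1b) and chr15:99029891-99038110 (plus strand, Tuba1c). Over whole coding sequences, Tubb6 and Tubb3 were 85.9% identical, Tubb2a and Tubb2b 96.5%, and the α genes 97.1% to 98.3%. Of all windows of 50 bases in the transcripts, 0% in Tubb6 and 0% in Tubb3 also occurred in a transcript of another gene, so their reads can be told from those of any annotated gene. The share was 0.184% in Tubb4a and 0.0892% in Tubb5. It was 49.6% in Tubb2a and 36.9% in Tubb2b, mostly from each other, and 37.8% in Tubb4b, mostly from its processed pseudogenes. It reached 72.9% in Tuba1a, 66.7% in Tuba1b and 52.7% in Tuba1c. How reads with several matches were counted is not given in the sources used here, so values of the latter 6 genes are uncertain wherever reads could be split. The study used paired reads of 100 or of 50 bases and does not assign these lengths to days. With windows of 100 bases the shares of these 6 genes ran from 21% in Tubb4b to 65.1% in Tuba1a. Exons of Tuba1a and Tuba1b also overlap Gm49450 on the same strand.

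On Day 1, Tubb6 was about 29.5 times as high after FGF1 as after vehicle, Tuba1c 5.75 times and Tubb2b 3.20 times, whereas Tubb3 and Tubb4a lay within the range of their vehicle group in most mice. The 10 FGF1-treated mice had 20.3 to 54.8 normalized counts of Tubb6, with a median of 39.1, and the 4 vehicle-treated mice had 2.23, 1.04, 1.02 and 1.29. No FGF1-treated mouse came near the vehicle range, and the lowest of them, replicate 22, was still above the highest vehicle-treated mouse. The means were 41.0 ± 10.4 (SD, n = 10) and 1.39 ± 0.566 (SD, n = 4), a log2 fold change of 4.88 ± 0.24 (SE). This was the third highest value of all 14221 genes, below Timp1 and Spp1. The vehicle level rested on 37 to 81 reads per library. The shallow FGF1 replicate 17, with 49 reads, had 39.9 normalized counts, near the group median.

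**Figure D1:**
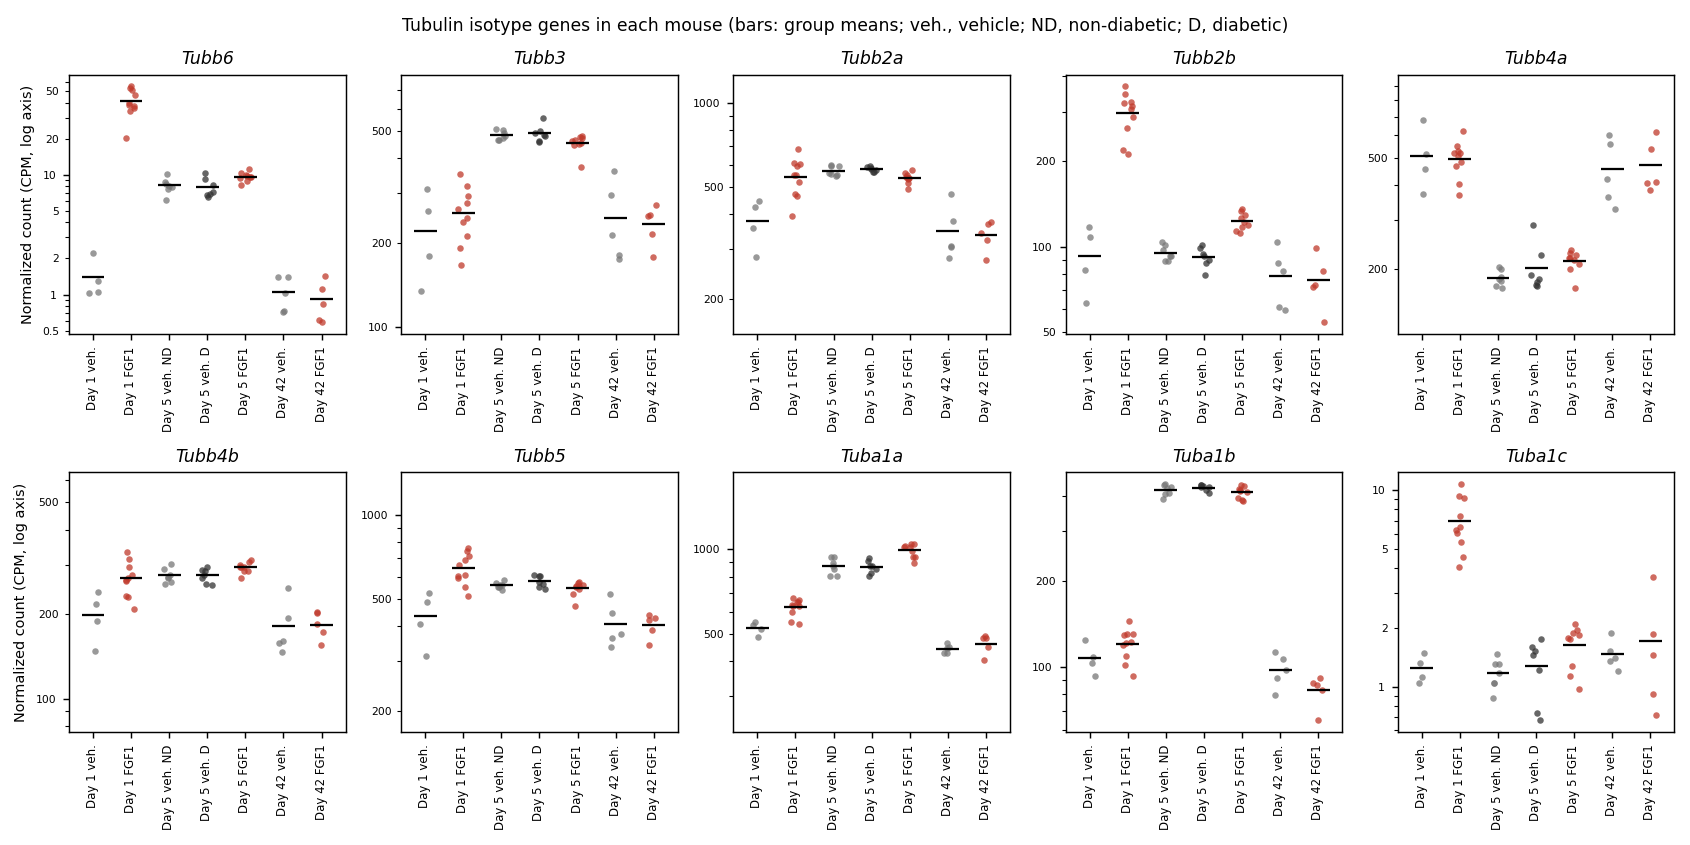
Normalized counts (CPM, log axis) of the 10 tubulin isotype genes in each of 47 mice, by day and treatment, with grey points for vehicle, dark grey points for the vehicle group of Day 5 labelled diabetic (D), red points for FGF1 and bars at group means. On Day 1 the FGF1-treated mice lie above all vehicle-treated mice for Tubb6, Tubb2b and Tuba1c, and on Day 42 the groups overlap for each of the 10 genes.

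Among the β isotypes abundant in neural tissue, Tubb2b stood apart on Day 1. Tubb2b, a β isotype abundant in the developing brain, had 213 to 369 normalized counts after FGF1 (median 311) and 117, 62.9, 82.3 and 108 after vehicle. The groups did not overlap, and the log2 fold change was 1.68 ± 0.14 (SE). Its near-copy Tubb2a had 393 to 685 normalized counts after FGF1 (median 552) against 426, 282, 358 and 448, with 9 of 10 FGF1-treated mice above all vehicle-treated mice. Its log2 fold change of 0.53 ± 0.11 (SE) was close to the fold threshold of 0.5.

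Tubb3 had 167 to 352 normalized counts after FGF1 (median 254) and 258, 135, 179 and 311 after vehicle. These ranges overlapped widely, and 2 of 10 FGF1-treated mice exceeded the vehicle range. The log2 fold change of Tubb3 was 0.20 ± 0.16 (SE), and depended on single vehicle-treated mice, at 0.026 without replicate 28, 0.11 without replicate 29 and 0.41 without replicate 30. Tubb4a, the isotype also typical of myelinating oligodendrocytes, had 367 to 621 normalized counts after FGF1 (median 512) and 516, 370, 455 and 680 after vehicle. Its log2 fold change was -0.03 ± 0.14 (SE) and turned to 0.15 without vehicle replicate 30.

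Of the broadly made β isotypes, Tubb5 had 512 to 758 normalized counts after FGF1 (median 635) against 489, 314, 409 and 527, a log2 fold change of 0.57 ± 0.10 (SE). Tubb4b, which is also the main β isotype of motile cilia, had 209 to 332 normalized counts after FGF1 (median 267) against 148 to 239, a log2 fold change of 0.44 ± 0.10 (SE). Tubb2a was the member just above a log2 fold change of 0.5 and Tubb4b the one just below it.

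Of the α genes, Tuba1c had 4.07 to 10.7 normalized counts after FGF1 (median 6.40) and 1.48, 1.33, 1.12 and 1.04 after vehicle. It was the α gene whose groups did not overlap, at a log2 fold change of 2.52 ± 0.26 (SE), and FGF1 replicate 17 held only 5 of its reads. The abundant Tuba1a had 540 to 672 normalized counts after FGF1 against 486 to 551, a log2 fold change of 0.25 ± 0.06 (SE). Tuba1b had 93.0 to 145 against 92.5 to 125, a log2 fold change of 0.17 ± 0.08 (SE).

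On Day 1, 5 of 10 members (Tubb6, Tuba1c, Tubb2b, Tubb5 and Tubb2a) and 12.2% of all genes had a log2 fold change above 0.5. This contrast chose Tubb6, so the count is a description with no test, and nothing is read from it. Without vehicle replicate 28, which was lowest for Tubb2a, Tubb2b, Tubb3 and Tubb5, 3 members lay above 0.5. Elsewhere a gene was called by the thresholds used in the study, namely a log2 fold change beyond 0.5 in either direction together with an adjusted p-value below 0.05, by which 19.5% of all genes were called on Day 1. Every FGF1-treated mouse exceeded every vehicle-treated mouse in 3 of 10 members and in 7.56% of all genes. The median log2 fold change of the members was 0.48, against 0.01 over all genes.

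**Figure D2:**
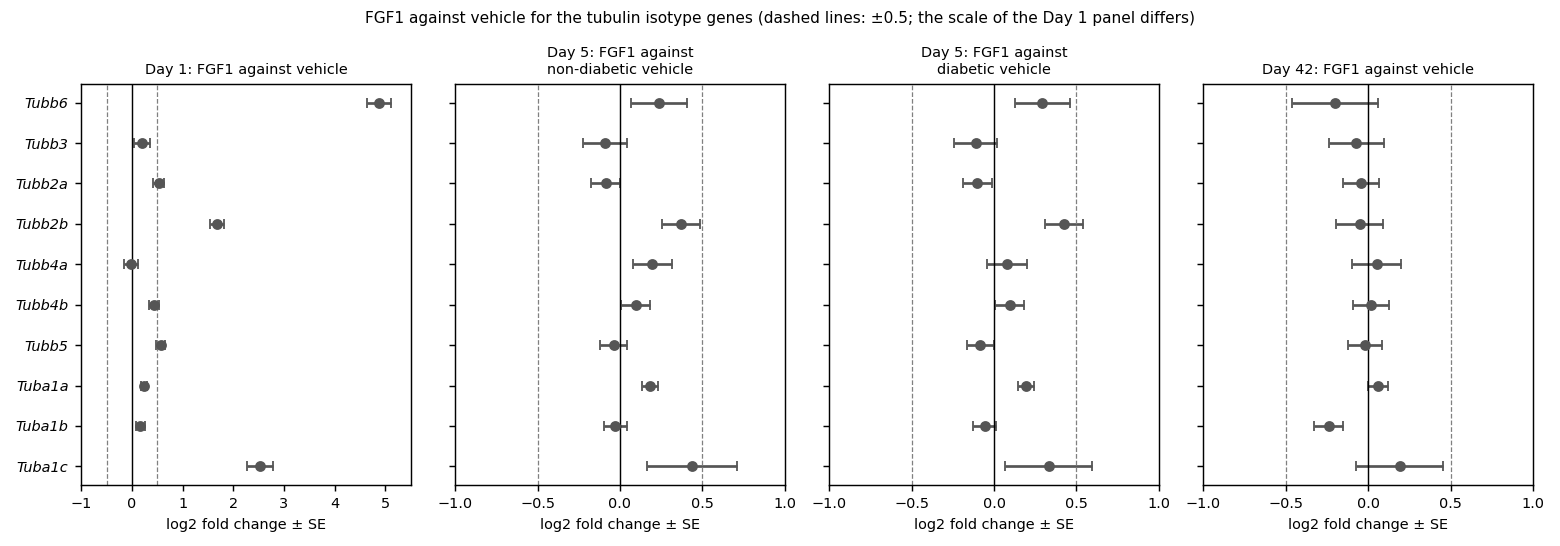
Log2 fold change (horizontal axis, bars are SE) of FGF1 against vehicle for each tubulin isotype gene on Day 1, on Day 5 against each vehicle group and on Day 42, with dashed lines at an absolute value of 0.5. In the Day 1 panel, whose axis is wider, the values run from -0.03 to 4.88, and in the other panels they lie between -0.24 and 0.44.

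In proportion to transcript length, Tubb6 stayed a minor isotype even after FGF1. Normalized counts per kilobase of exon were 16.8 ± 4.28 (SD, n = 10) for Tubb6 on Day 1 after FGF1 and 0.572 ± 0.232 (SD, n = 4) after vehicle. The most abundant members after FGF1 were Tuba1a at 344 ± 24.7 and Tubb2a at 339 ± 53.0 (SD, n = 10), whose ranges overlapped. Below them came Tubb4a, Tubb5, Tubb3, Tubb2b and Tubb4b, each overlapping its neighbour in the order. Tuba1b at 64.1, Tubb6 at 16.8 and Tuba1c at 3.04 followed, each apart from the next. In the vehicle group of Day 1, the per-kilobase level of Tubb2b stood below that of Tubb4b and overlapped that of Tuba1b, and Tubb6 and Tuba1c overlapped at the bottom.

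As a share of the 7 β-tubulin genes, per length, Tubb6 made up 0.0679% ± 0.0216 (SD, n = 4) after vehicle and 1.44% ± 0.273 (SD, n = 10) after FGF1 on Day 1. The share of Tubb2b was 4.75% ± 0.478 after vehicle and 11.1% ± 0.639 after FGF1. That of Tubb4a was 26.8% ± 1.62 after vehicle and 19.1% ± 0.908 after FGF1, with no overlap. Summed per length, the β genes came to 1166 ± 177 (SD, n = 10) after FGF1 and 847 ± 201 (SD, n = 4) after vehicle, and these ranges overlapped. Of the difference of 320 ± 115 (SE), Tubb2a made up 32.4%, Tubb2b 27.8%, Tubb5 19.7% and Tubb6 5.09%. The gene with the highest fold thus added little to this difference. Tubb2a and Tubb5 added to it by small folds, of 1.44 and 1.48, from 235 and 131 per kilobase after vehicle. Tubb2b added to it by a fold of 3.20 from a lower level of 40.4. The division between Tubb2a and Tubb2b is uncertain, since these genes share many sequence windows.

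**Figure D3:**
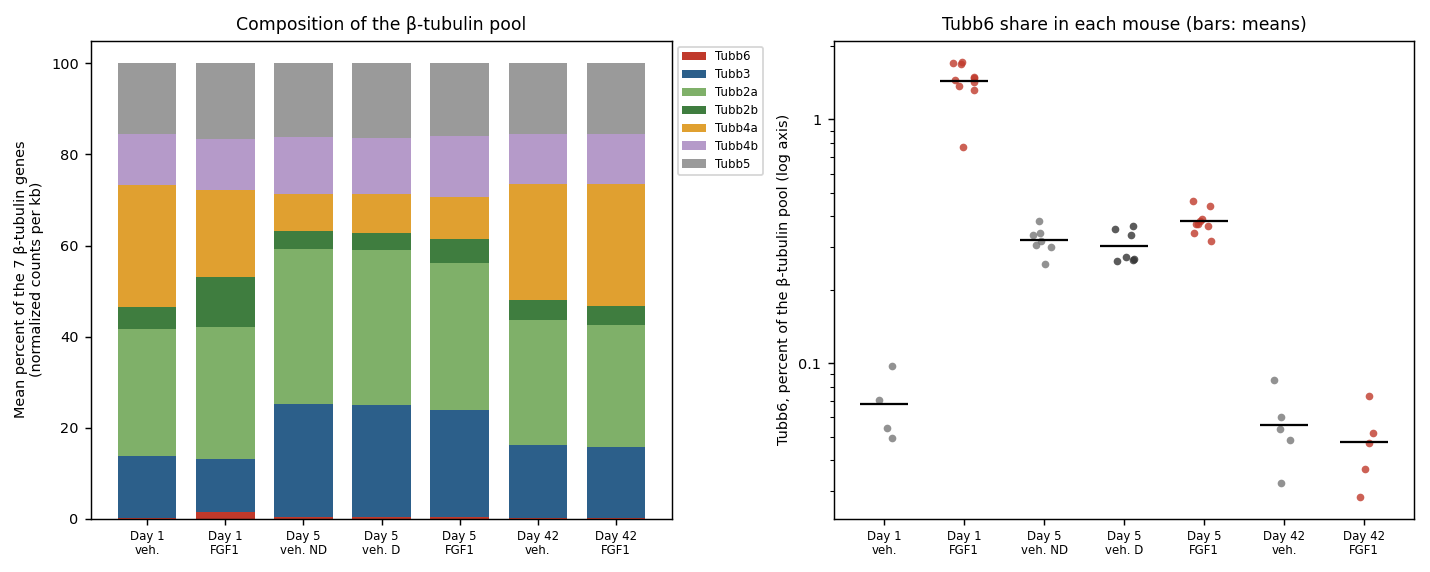
Left, mean share of each β-tubulin gene in the summed level of the 7 genes (percent, per kilobase of exon) in the 7 groups. Right, the share of Tubb6 in each mouse (percent, log axis, bars at means), which lies between 0.773 and 1.71 after FGF1 on Day 1 and reaches at most 0.0974 after vehicle on Days 1 and 42.

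On Day 5, Tubb6 did not pass the test against either vehicle group, and none of the 10 members passed both thresholds. FGF1-treated mice had 8.25 to 11.2 normalized counts of Tubb6 (median 9.57). Vehicle-treated mice labelled non-diabetic had 6.20 to 10.2 (median 8.01), and those labelled diabetic had 6.54 to 10.3 (median 7.19). Of 9 FGF1-treated mice, 2 exceeded each vehicle range. The log2 fold change was 0.24 ± 0.17 (SE) against the non-diabetic group (adjusted p = 0.548 by edgeR's quasi-likelihood test with Benjamini-Hochberg adjustment, as for all adjusted p-values here) and 0.29 ± 0.17 (SE) against the diabetic group (adjusted p = 0.320). In a fit of Day 5 libraries alone the adjusted p-values were 0.0781 and 0.0194, within ranges of 0.0781 to 0.633 and 0.0194 to 0.402 over the alternatives, and the fold stayed under the threshold.

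Tubb2b was the 1 member whose groups did not overlap on Day 5. It had 112 to 136 normalized counts after FGF1 (median 123), 89.1 to 104 in the non-diabetic vehicle group (median 92.7) and 79.1 to 102 in the diabetic one (median 92.3). All 9 FGF1-treated mice lay above both vehicle groups, as was the case in 2.38% and 3.63% of all genes. The log2 fold changes were 0.37 ± 0.12 (SE, adjusted p = 0.0489) and 0.42 ± 0.12 (SE, adjusted p = 0.0127), both under the fold threshold. Against the non-diabetic group the adjusted p was 0.102 without the 2 deepest FGF1 libraries, 0.0519 with the size factors of DESeq2 and 0.0516 without the shallow replicate 17 of Day 1, in a range of 1.61e-06 to 0.102 over the alternatives.

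Tuba1a had 896 to 1047 normalized counts after FGF1 (median 1018), 807 to 943 in the non-diabetic vehicle group (median 871) and 807 to 931 in the diabetic one (median 875). Its log2 fold changes of 0.18 ± 0.05 (SE, adjusted p = 0.0171) and 0.19 ± 0.05 (SE, adjusted p = 0.00651) also stayed under the fold threshold, with 6 and 8 of 9 FGF1-treated mice above the vehicle ranges. Thus 2 of 10 members, Tubb2b and Tuba1a, had an adjusted p under 0.05 in each comparison, as did 4.65% and 9.21% of all genes, and 0 of 10 passed both thresholds, where 1.54% and 2.85% of all genes did. Both are genes with many shared sequence windows, and both comparisons use the same FGF1-treated mice.

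Newly formed oligodendrocyte markers moved in the same mice: 4 of 5 were called higher on Day 5 against each vehicle group, and their summed level was 303 to 405 normalized counts after FGF1, 157 to 186 in the non-diabetic and 160 to 201 in the diabetic vehicle group. Of 8 astrocyte markers, Gfap and Aqp4 were called higher in both comparisons, and the summed astrocyte level was 5301 to 5857 normalized counts after FGF1 against 4631 to 4841 and 4501 to 5051. Of 6 mature oligodendrocyte markers 2 were called higher in each comparison. Of 6 microglia markers 5 were called higher against the diabetic group and 0 against the non-diabetic group, and of 5 meningeal fibroblast markers 1 and 2. Of 6 tanycyte markers 1 was called higher in each comparison, and of 6 ependymal markers 1 against the diabetic group and 0 against the non-diabetic group. The part of these cells in the values of Tubb2b and Tuba1a was not tested.

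Tubb2a, which shares many sequence windows with Tubb2b, had 492 to 577 normalized counts after FGF1 (median 541), 549 to 602 in the non-diabetic group (median 563) and 564 to 596 in the diabetic group (median 582). Of 9 FGF1-treated mice, 6 lay below all non-diabetic and 8 below all diabetic vehicle-treated mice. The log2 fold change of Tubb2a was -0.09 ± 0.09 (SE, adjusted p = 0.726) and -0.10 ± 0.09 (SE, adjusted p = 0.565). With Day 5 libraries alone in the fit the adjusted p-values were 0.0537 and 0.0150, the lowest of ranges that reached 0.834 and 0.701 over the alternatives.

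The other members did not pass the test on Day 5. Log2 fold changes against the non-diabetic group were -0.09 ± 0.13 (SE) for Tubb3, -0.04 ± 0.08 for Tubb5, -0.03 ± 0.07 for Tuba1b, 0.10 ± 0.09 for Tubb4b, 0.20 ± 0.12 for Tubb4a and 0.44 ± 0.27 for Tuba1c, and their adjusted p-values ran from 0.450 to 0.921. Against the diabetic group these log2 fold changes ran from -0.11 to 0.33. With the Day 5 libraries alone in the fit, the edgeR adjusted p of Tubb4b was 0.0406 against the non-diabetic and 0.0288 against the diabetic group, at a log2 fold change of 0.10 in each and so below the fold threshold. Over all alternatives it ran from 0.0406 to 0.769 and from 0.0288 to 0.674. Tubb3 had 373 to 478 normalized counts after FGF1 (median 462), 464 to 506 in the non-diabetic group (median 479) and 457 to 557 in the diabetic group (median 483).

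Within the same library, the ratio of Tubb6 to Tubb3 was higher after FGF1 on Day 5. The log2 ratio of Tubb6 to Tubb3, per length, was -5.93 ± 0.19 (SD, n = 9) after FGF1, -6.27 ± 0.18 (SD, n = 7) in the non-diabetic and -6.35 ± 0.19 (SD, n = 7) in the diabetic vehicle group. The differences of 0.34 and 0.42 on the log2 scale gave exact two-sided permutation p = 0.00122 and p = 0.000874, each 0.00184 after adjustment over 3 comparisons. The ranges overlapped, from -6.18 to -5.55 after FGF1 and from -6.60 to -6.02 and -6.52 to -6.12 after vehicle. The ratio also takes in Tubb3, whose own log2 fold changes were -0.09 and -0.11 and did not pass the test. Of 9 neuronal markers 0 were called on Day 5. Their sums were 2762 to 3435 after FGF1, against 3301 to 3709 (non-diabetic) and 3068 to 3948 (diabetic). The part of cell types in the ratio was not tested. With Tubb4a in place of Tubb3, the differences were 0.06 and 0.21 and did not pass (exact permutation p = 0.611 and p = 0.0928, where p ran from 0.00122 to 0.611 and from 0.000874 to 0.0928 over the partners tried and without the pseudocount). On Day 1 the ratio was -3.03 ± 0.39 (SD, n = 10) after FGF1 and -7.68 ± 0.48 (SD, n = 4) after vehicle, given without a test.

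**Figure D4:**
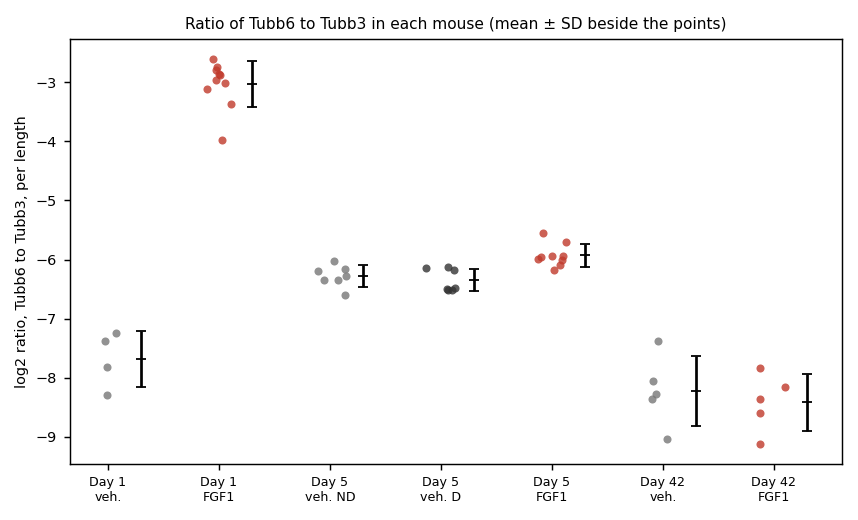
Log2 ratio of Tubb6 to Tubb3 in each mouse (vertical axis, counts with 0.5 added, per kilobase of exon) by group, with the mean ± SD beside the points and grey or dark grey points for vehicle (non-diabetic, diabetic) and red points for FGF1. FGF1-treated mice lie between -3.97 and -2.60 on Day 1 and overlap the vehicle groups on Days 5 and 42.

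Between the 2 vehicle groups of Day 5 no member passed the test. Log2 differences, diabetic minus non-diabetic, ran from -0.06 for Tubb6 to 0.12 for Tubb4a. By edgeR's quasi-likelihood test 0 of 10 members were called, 0 had an unadjusted p under 0.05 (1.36% of all genes did), and 0% of all genes were called. DESeq2 called 0 members as well. For Tubb6 the groups averaged 7.88 ± 1.43 (SD, n = 7) and 8.15 ± 1.20 (SD, n = 7) normalized counts.

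On Day 42, Tubb6 was low in both groups. The FGF1-treated mice had 0.841, 0.609, 1.42, 0.588 and 1.11 normalized counts, and the vehicle-treated mice had 0.724, 0.713, 1.40, 1.03 and 1.41. The groups overlapped almost entirely, and each library held between 11 and 62 reads of the gene. The log2 fold change was -0.20 ± 0.26 (SE, adjusted p = 1), and ran from -0.47 without FGF1 replicate 9 to -0.058 without FGF1 replicate 10. Tubb2b had 81.8, 71.9, 99.2, 54.0 and 73.0 normalized counts after FGF1 and 59.7, 87.7, 81.6, 61.3 and 104 after vehicle, a log2 fold change of -0.05 ± 0.14 (SE, adjusted p = 1).

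By edgeR, 0 of 10 members were called on Day 42, as were 0% of all genes, and 1 of 10 members, Tuba1b, had an unadjusted p under 0.05, as did 5.46% of all genes. DESeq2 called 0 members. Tuba1b had 82.7, 87.9, 91.4, 64.9 and 86.2 normalized counts after FGF1 against 79.4, 113, 91.4, 97.2 and 107 after vehicle. These ranges overlapped, and its log2 fold change was -0.24 ± 0.09 (SE, adjusted p = 0.592). The ratio of Tubb6 to Tubb3 was -8.41 ± 0.48 (SD, n = 5) and -8.22 ± 0.60 (SD, n = 5), an exact two-sided permutation p of 0.595, where 0.00794 is the smallest that 5 against 5 mice can give. Without vehicle replicate 14 the difference turned from -0.19 to 0.02.

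The FGF1 effect on Day 42 was compared with that on Day 5 against the non-diabetic vehicle group, and no member passed the test. The difference of the log2 fold changes, Day 42 minus Day 5, was -0.44 ± 0.31 (SE, adjusted p = 0.748) for Tubb6 and -0.42 ± 0.18 (SE, adjusted p = 0.380) for Tubb2b. For the other members it ran from -0.25 to 0.04. Of the members 0 were called, against 0.717% of all genes.

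Levels of the vehicle-treated mice differed between days, each of which had its own preparation code. Tubb6 averaged 1.39, 8.15 and 1.06 normalized counts in non-diabetic vehicle groups on Days 1, 5 and 42. Tuba1b averaged 107, 420 and 97.5 normalized counts, Tubb3 221, 483 and 245, and Tubb4a 505, 186 and 454. The 7.88 of the diabetic vehicle group placed it with the other vehicle group of Day 5. Time after injection and preparation cannot be told apart in these values, so a fold change on Day 5 was measured from a higher Tubb6 level than on Day 1 or Day 42.

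The genes most like Tubb6 were sought among 14113 other genes with a mean of at least 1 normalized count, by Pearson's r over 47 libraries of log2(normalized count + 0.5) less the mean of the non-diabetic vehicle group of the day. The 5 highest were S100a10 (r = 0.991), Tagln2 (r = 0.988), Socs3 (r = 0.988), S1pr3 (r = 0.986) and Stat3 (r = 0.985). S100a10 encodes the partner of annexin A2, Tagln2 an actin-binding protein, S1pr3 a receptor for sphingosine 1-phosphate, Stat3 a transcription factor activated by cytokines and Socs3 a feedback inhibitor of such signals. Most of the spread in these values lies between the FGF1-treated mice of Day 1 and the rest, and the same genes had Day 1 log2 fold changes of 1.69 to 4.50. Within the 10 FGF1-treated mice of Day 1, Pearson's r with Tubb6 was 0.773 for S100a10, 0.693 for Tagln2, 0.881 for Socs3, 0.580 for S1pr3 and 0.612 for Stat3. Without the shallow replicate 17 these ran from 0.706 to 0.985. Among the members, r over the 47 libraries was 0.953 for Tubb2b, 0.925 for Tuba1c, 0.863 for Tubb5, 0.826 for Tubb2a and 0.767 for Tubb4b. It was 0.625 for Tuba1a, 0.526 for Tuba1b, 0.434 for Tubb3 and -0.09 for Tubb4a. Within the FGF1-treated mice of Day 1 that order was not seen, with r of 0.725 for Tubb4b, 0.722 for Tubb2a, 0.527 for Tubb2b and 0.204 for Tuba1c. There r was 0.567 for Tubb5, 0.475 for Tubb3, 0.402 for Tubb4a, 0.221 for Tuba1a and 0.301 for Tuba1b. These correlations share libraries and size factors and are descriptions.

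Markers of several cell types moved with FGF1 on Day 1. Of 6 microglia markers 5 were called higher and 1 lower, and their summed level was 143 to 209 normalized counts after FGF1 against 110 to 139 after vehicle. Of 8 astrocyte markers, Gfap was called higher (log2 fold change 2.81) and 2 lower, with summed levels that overlapped. The 9 neuronal markers, of which 0 were called, summed to 3736 to 4727 normalized counts after FGF1 and 5013 to 5908 after vehicle. The 6 ependymal markers, of which 3 were called lower, summed to 38.4 to 66.6 after FGF1 against 70.2 to 95.2, and the 6 mature oligodendrocyte markers, of which 5 were called lower, to 2067 to 3879 against 3367 to 4962. Meningeal fibroblast markers, of which 2 of 5 were called higher and 1 lower, summed to 50.5 to 341 after FGF1 against 72.2 to 132. The 3 choroid plexus markers in the table, of which 2 were called lower, summed to 18.7 to 36.3 against 42.9 to 56.2. Of 10 hypothalamic neuropeptide genes 1 was called higher and 2 lower, with summed levels that overlapped. Of 5 pericyte and smooth muscle markers 2 were called higher and 0 lower, and of 5 newly formed oligodendrocyte markers 0 higher and 2 lower, and for both lists the sums overlapped. None of the marker genes in the table was at 0 over a whole group. Of 6 monocyte and neutrophil markers only Ccr2 was in the table, at 0 to 4.71 normalized counts after FGF1 and 0.246 to 0.988 after vehicle. Ccr2 was called higher, at a log2 fold change of 1.69. Of 6 tanycyte markers 1 was called higher, of 5 endothelial markers 1 higher and 1 lower, and of 5 oligodendrocyte precursor markers 0. The part of these cells in the Day 1 values of Tubb6, Tubb2b and Tuba1c was not tested.

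Other genes of the tubulin pathway were taken from 4 lists. Among 14 other tubulins and γ-tubulin complex genes in the table, 3 rose and 0 fell, where 19.5% of all genes were called, and the median log2 fold change was 0.02. Those were Tubd1, the δ-tubulin of centrioles, which rose by a log2 fold change of 1.17 ± 0.17 (SE, adjusted p = 3.43e-07), Nedd1, which brings γ-tubulin complexes to the centrosome, at 0.63 ± 0.13 (SE, adjusted p = 6.46e-05), and Tubgcp4, a subunit of those complexes, at 0.51 ± 0.09 (SE, adjusted p = 9.86e-06). On Day 5 0 of these 14 genes passed both thresholds against either vehicle group, where 1.54% (non-diabetic) and 2.85% (diabetic) of all genes did.

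Of 22 genes for the chaperonin CCT, prefoldin, tubulin cofactors and the autoregulation factor Ttc5, 0 passed both thresholds on Days 1, 5 and 42 by edgeR, where 19.5%, 1.54% or 2.85% (non-diabetic or diabetic group) and 0% of all genes did. There were 7 at an unadjusted p under 0.05 on Day 1 (51.6% of all genes) and 3 on Day 5 against the non-diabetic group (16.5% of all genes). The median log2 fold change was -0.01 on Day 1. Ttc5 itself had a log2 fold change of -0.03 ± 0.06 (SE, adjusted p = 0.750) on Day 1.

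Enzymes that modify tubulin after its assembly moved in both directions. Of 24 genes, 2 rose and 5 fell on Day 1, where 19.5% of all genes were called. Ttll3, a ligase that adds glycine to tubulin in cilia, fell by 1.75 ± 0.17 (SE) on the log2 scale, from 49.5 ± 9.38 (SD, n = 4) to 14.9 ± 3.06 (SD, n = 10) normalized counts (edgeR adjusted p = 9.49e-12). Ttll8, the other initiating glycylase, fell by 0.62 ± 0.16 (SE, adjusted p = 0.00175). Vash1, a tubulin detyrosinase, rose by 0.82 ± 0.14 (SE, adjusted p = 3.55e-06) and Ttll12 by 0.64 ± 0.12 (SE, adjusted p = 1.63e-05). On Day 5 against the non-diabetic group, 2 rose and 0 fell, where 1.54% of all genes were called. Sirt2, a deacetylase of α-tubulin that is abundant in myelin, rose by 0.74 ± 0.09 (SE, adjusted p = 6.11e-08), from 67.7 ± 4.59 (SD, n = 7) to 113 ± 7.39 (SD, n = 9) normalized counts, and Ttll3 rose by 0.52 ± 0.16 (SE, adjusted p = 0.0483). Ttll3 was thus lower than vehicle on Day 1 and higher on Day 5, and the difference between the days was not tested. Beside these, the summed ependymal markers were lower on Day 1, as given above, and overlapped on Day 5, at 51.3 to 69.8 after FGF1 against 43.1 to 59.8, and mature oligodendrocyte markers summed to 5646 to 6508 on Day 5 after FGF1 against 4170 to 5559 in the non-diabetic vehicle group. The part of these cells in the values of Ttll3 and Sirt2 was not tested.

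Of 30 microtubule-associated and tubulin-sequestering genes, 1 rose and 2 fell on Day 1, where 19.5% of all genes were called. Katna1, the catalytic subunit of the microtubule-severing enzyme katanin, rose by 0.56 ± 0.09 (SE, adjusted p = 1.96e-06). Dcx, doublecortin of immature neurons, fell by 0.70 ± 0.10 (SE, adjusted p = 3.27e-07), and Map7, which recruits kinesin to microtubules, fell by 0.61 ± 0.08 (SE, adjusted p = 1.90e-08). The median over the list was -0.08, and on Day 5 0 of the 30 genes passed both thresholds against either vehicle group (1.54% and 2.85% of all genes). On Day 42, 0 genes of these lists and 0% of all genes were called by edgeR. Of all genes, 5.46% had an unadjusted p under 0.05 there, and the lists held 1, 1, 1 and 0 such genes in the order given here.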

How the data were processed

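Bulk mRNA from the hypothalamus of 47 mice was sequenced with a strand-specific kit, 1 library per mouse. The authors aligned reads with STAR (the counting program is not given in the sources used here; per the study's processing notes the genome build is named GRCh38, a human build name, although the reads are from mice) and deposited a table of whole-number counts per gene, without normalization. The table holds 14221 genes, none at 0 in every library. Columns were matched to samples by title. Groups follow the treatment labels. Nothing says whether mice shared litters, so p-values measure the spread between these mice.

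Counts were scaled by TMM and fitted in edgeR 4.0.16 (R 4.3.3) with 1 mean for each of 7 groups, and p-values of the quasi-likelihood F test received the Benjamini-Hochberg adjustment across the whole table for each contrast. A gene was called where the adjusted p-value was below 0.05 and the log2 fold change lay beyond 0.5 in either direction. The filter on low counts removed 0 genes. SEs were derived from the log2 fold change and the F statistic. Ratios used counts with a pseudocount of 0.5 and exact two-sided permutation tests over mice (SciPy 1.17.1). Exon and coding lengths, coordinates and transcript sequences were taken from GENCODE M21 for GRCm38, which lists 14180 of the symbols. On simulated counts with 200 changed genes of 14221, at a log2 change of 1.5, 99% were recovered for Day 1, 99.5% for Day 5 and 98.5% for Day 42. Unchanged genes called numbered 3, 1 and 3. The members' log2 fold changes on Days 5 and 42 lay between -0.24 and 0.44. These rates therefore do not give the recovery of changes that small. No 2 libraries of a group agreed within sampling noise, the smallest chi-square per degree of freedom being 1.69.

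The members and the lists were chosen with earlier results of these data known. Named genes were all members, from each other list up to 4 called genes with the highest absolute log2 fold change on Day 1 and on Day 5 against the non-diabetic group, and the 5 genes most like Tubb6. Alternatives were DESeq2 1.42.0, its size factors, other count filters, no fold threshold, fits of a single day, merged vehicle groups, single mice left out, the deepest or shallowest libraries left out, other partners in the ratio, no pseudocount and coding length. Leaving out each Day 5 mouse in the ratio was chosen after seeing the data. Total counts ran from 1243280 to 47082403, and the lowest count of a member in any library was 5, so the precision of Tuba1c and Tubb6 is limited by few reads. Some sequences are not reported here.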

Additional observations from a re-analysis of the deposited data

Results flagged for a closer look

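Of 84 sets of 1 quantity in 1 group, 3 held a mouse whose gap to its nearest neighbour was large for the range of the group by Dixon's criterion, which chance meets in about 1 of 20 sets. The share of Tubb6 among β-tubulin genes was 0.773% in FGF1 replicate 22 of Day 1 and 1.32% to 1.71% in the other 9 mice. Tubb3 was at 373 normalized counts in FGF1 replicate 4 of Day 5, against 444 to 478 in the other 8. Tubb3 was at 557 normalized counts in replicate 1 of the diabetic vehicle group of Day 5, against 457 to 498 in the other 6. With either of the last 2 mice left out, the difference in the ratio of Tubb6 to Tubb3 on Day 5 kept an exact permutation p under 0.05. Leaving out each Day 5 mouse in turn gave log2 differences of 0.29 to 0.39 against the non-diabetic group, with an exact permutation p of at most 0.0028, and of 0.37 to 0.46 against the diabetic group, with at most 0.0020.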

How the results depend on the processing

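Each result was recomputed with 1 choice changed at a time. Of the recomputed member log2 fold changes, 592 kept their direction and their side of the thresholds, 5 no longer passed, 1 newly passed and 36 changed sign, none of them called in the fit reported. No paired analysis was possible because each mouse is in 1 group and the labels give no number that ties mice of different groups. On Day 1, 3 to 6 members had a log2 fold change above 0.5 when single vehicle-treated mice were left out (3 without replicate 28, 6 without replicate 30). With DESeq2 there were 4. For Day 1 these counts, and the sides of the thresholds above, are descriptions with no test. With no fold threshold the number of members called on Day 5 was 2 against each vehicle group, in place of 0. With Tubb4a as partner of Tubb6 the Day 5 differences in log2 ratio were 0.055 and 0.21 and did not pass. Leaving out single mice, the Day 42 difference in the ratio to Tubb3 ran from -0.40 to 0.018.

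Tubb4b between the vehicle groups turned from 0.0003 to -0.0046 with at least 10 counts in every library and to -0.00021 with Day 5 alone in the fit. Leaving out single mice gave, with a change of sign, -0.15 to 0.15 for Tubb4a on Day 1. On Day 42 it gave -0.19 to 0.36 for Tuba1c, -0.11 to 0.089 for Tubb2a, -0.17 to 0.069 for Tubb2b, -0.17 to 0.11 for Tubb3, -0.064 to 0.18 for Tubb4a, -0.050 to 0.16 for Tubb4b and -0.080 to 0.083 for Tubb5. For Day 42 minus Day 5 it gave -0.027 to 0.18 for Tubb2a, -0.079 to 0.20 for Tubb3, -0.14 to 0.062 for Tubb4b and -0.042 to 0.12 for Tubb5.

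The count of all genes called on Day 1 was 2776, against 6396 with no fold threshold and 1582 with at least 10 counts in every library. Against the non-diabetic group of Day 5 it was 219, against 661 with no fold threshold, 140 with at least 10 counts, 370 with that day alone and 372 with both vehicle groups merged. Against the diabetic group it was 406, against 1310 with no fold threshold and 219 with at least 10 counts. On Day 42 it was 0, against 31 without FGF1 replicate 7 and 1 without FGF1 replicate 8. For Day 42 minus Day 5 it was 102, against 65 without the 2 deepest FGF1 libraries and 56 to 149 with single mice of Day 42 left out, the lowest without FGF1 replicate 11.

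Coding length in place of exon length gave Tubb6 levels per kilobase of 30.6 and 1.04 on Day 1 (FGF1 and vehicle), 7.20, 6.08 and 5.87 on Day 5 (FGF1, non-diabetic and diabetic) and 0.681 and 0.788 on Day 42, and Tubb6 shares of 0.443%, 0.372% and 0.352% on Day 5. The cause of these changes was not tested, beyond the different length or number of genes or mice that an alternative uses.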
